A study of Mus musculus with 8 samples.

Results

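Mitochondria make few of their own proteins, and the rest are built in the cytosol and threaded through 2 membranes by translocases. The outer membrane translocase (TOM) admits almost all of them, the presequence translocase (TIM23) and its motor pull matrix proteins across the inner membrane, and the carrier translocase (TIM22) with the small TIM chaperones of the intermembrane space inserts metabolite carriers. Proteases then remove targeting sequences and damaged proteins, while dynamin-like GTPases fuse and divide the organelle and so shape the mitochondrial network of muscle fibres. The genes described here are those whose symbols start with Timm or Tomm, together with 16 named genes for proteases, motor subunits, inner membrane scaffolds, fusion and fission. The rule found 38 genes among 21212 probe sets, with 15 Timm genes, 8 Tomm genes and 15 of the 16 named genes, each on 1 probe set. Pam16 was not analysed here, nor were Tomm20, Tomm20l and Timm23 among the genes that the symbols cover.

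The arrays measured which genes change in expression when skeletal muscle wastes through disuse, within a study of NF-kB target genes in unloaded muscle. Gastrocnemius and plantaris muscles were taken from female wild type C57BL/6J mice 7 weeks old, either after 5 days with the hind limbs held off the cage floor (unloaded) or after normal weight bearing. Each group had 4 independent total RNA samples, which the labels call biological replicates, each on its own array. Values are log2 expression, so that a difference of 1 is a doubling, and they were scaled between arrays by the authors, so a shift shared by all genes cannot be seen. Array medians lay between 6.28 and 6.33, and arrays correlated at 0.996 to 0.997 within a group and at 0.992 to 0.994 between groups across probe sets. No 2 arrays held the same values. The 10 markers of the skeletal muscle fibre were all at or above the 99.6th percentile of mean level, and the dimmest marker of the other cell types was at the 33.1th percentile. Muscle is a mixed tissue, and in such samples fewer cells of a type cannot be told apart from less RNA per cell.

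Import and membrane dynamics genes were lower in unloaded muscle more often than they were higher. With limma and a threshold of 0.05 on the adjusted p, 12 of the 38 were lower, or 31.6%, where 11.0% of all probe sets were lower. Only Fis1, Phb2 and Timm8a2 were higher, which is 7.89% of the genes, against 12.8% of all probe sets, and 23 did not pass. The median log2 change was -0.07, within a range of -0.81 to 0.24, beside a median of 0.04 over all probe sets. Changes were negative in 24 genes and positive in 14, against 8189 and 13023 of all probe sets. The 38 genes were brighter than most, at a median percentile of 84.2 for mean level. The shares over probe sets of like level were not computed. In 14 genes every unloaded array lay below every weight bearing array, against 12.0% of all probe sets, and in 7 every unloaded array lay above, against 15.5%. By the methods' t-test with the same adjustment 7 genes were lower and 2 higher, with 6.48% and 6.57% of all probe sets called lower and higher. Of the 3 higher genes only Phb2 passed that test, and the other gene it called higher was Mfn2. Here that test assumed unequal variances, and with equal variances 9 genes were lower and 4 higher. The share called lower differed by role, and no test of these shares was made. It was 12.5% of the 8 TOM genes and 16.7% of the 6 TIM23 genes, near the 11.0% of all probe sets. It was 33.3% of the 9 TIM22 and small TIM genes, 40% of the 5 proteases and 33.3% to 66.7% of the roles with 3 genes. Several complexes held a gene that fell beside partners that did not pass the test or rose.

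**Figure D1:**
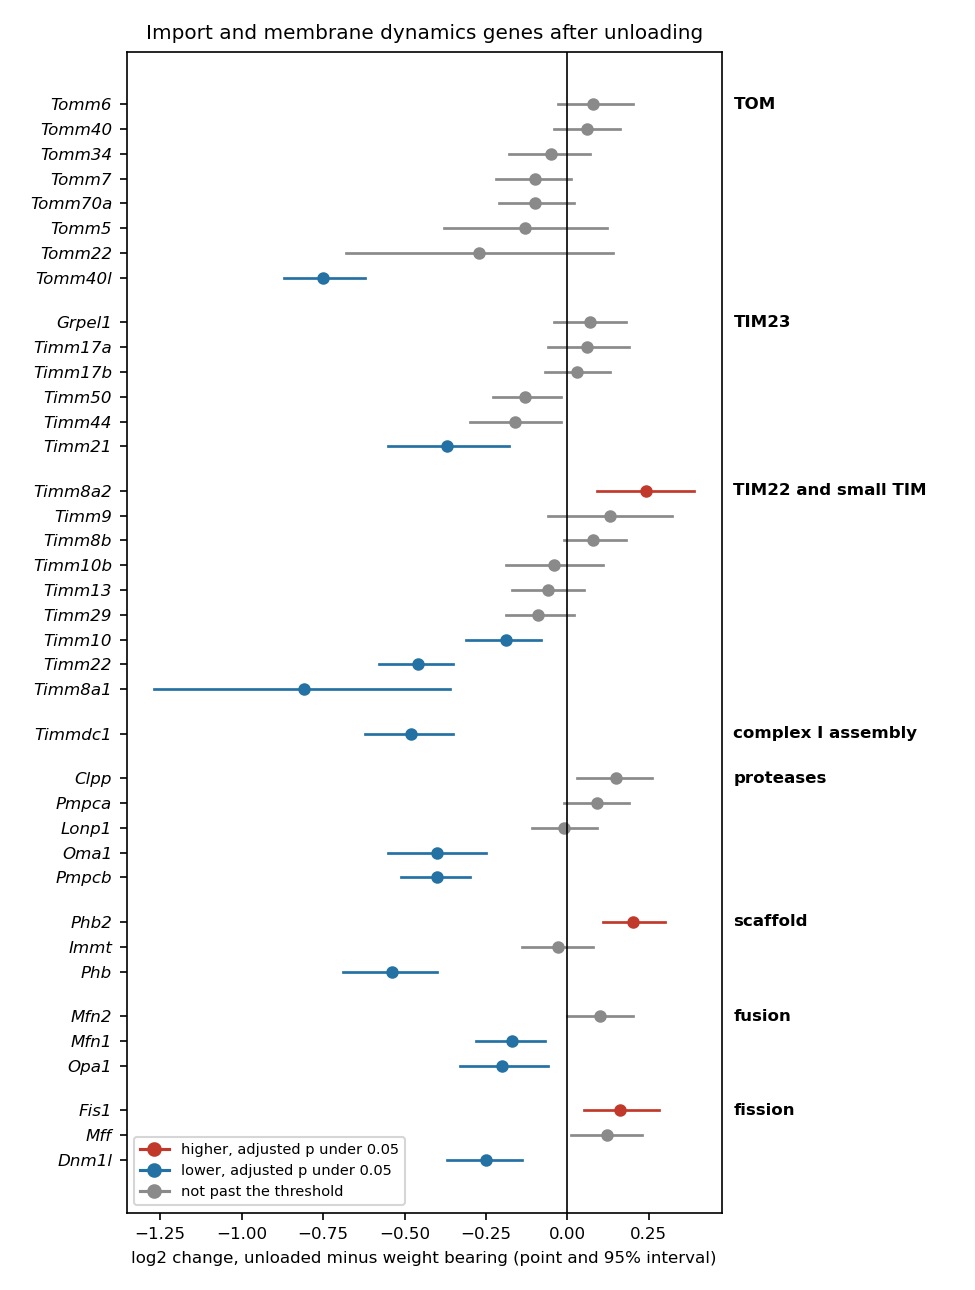
Log2 change (unloaded minus weight bearing, limma, 4 arrays per group) of the 38 genes by role, with the 95% interval as a line. Blue points were called lower and red points higher at the 0.05 threshold, and grey points did not pass. The lowest value is that of Timm8a1 at -0.81 and the highest that of Timm8a2 at 0.24.

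In the outer membrane translocase a single gene fell. Tomm40l, a paralog of the channel protein Tomm40, was 1.68-fold lower in unloaded muscle, while Tomm40 itself did not pass the test. The TOM complex joins this channel to the receptors Tomm22 and Tomm70a and to the small subunits Tomm5, Tomm6 and Tomm7. Tomm40l measured 6.97, 6.89, 7.01 and 7.11 in the unloaded arrays and 7.80, 7.75, 7.71 and 7.70 in the weight bearing arrays. The groups were 0.59 apart at their closest, the widest gap among the 38 genes. Its log2 change was -0.75 ± 0.06 (SE, adjusted p = 2.2e-05). Tomm40 measured 7.74, 7.74, 7.77 and 7.67 in the unloaded arrays and 7.63, 7.66, 7.71 and 7.68 in the weight bearing arrays, and the groups overlapped. The limma log2 change was 0.06 ± 0.05 (SE, adjusted p = 0.358), with a 95% interval of -0.04 to 0.16. The other 6 TOM genes overlapped between groups as well, with changes between -0.27 for Tomm22 and 0.08 for Tomm6. Tomm34 (-0.05) was counted among them by its symbol and is not in the list of subunits above. Over all 8 TOM genes limma called 1 lower (12.5%, against 11.0% of all probe sets) and 0 higher, as did the methods' t-test. The median change was -0.10. At an unadjusted p under 0.05 the counts were again 1 and 0. Tomm22 varied most of the TOM genes, from 7.03 to 7.74 in unloaded and from 7.41 to 8.18 in weight bearing muscle (adjusted p = 0.31).

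**Figure D2:**
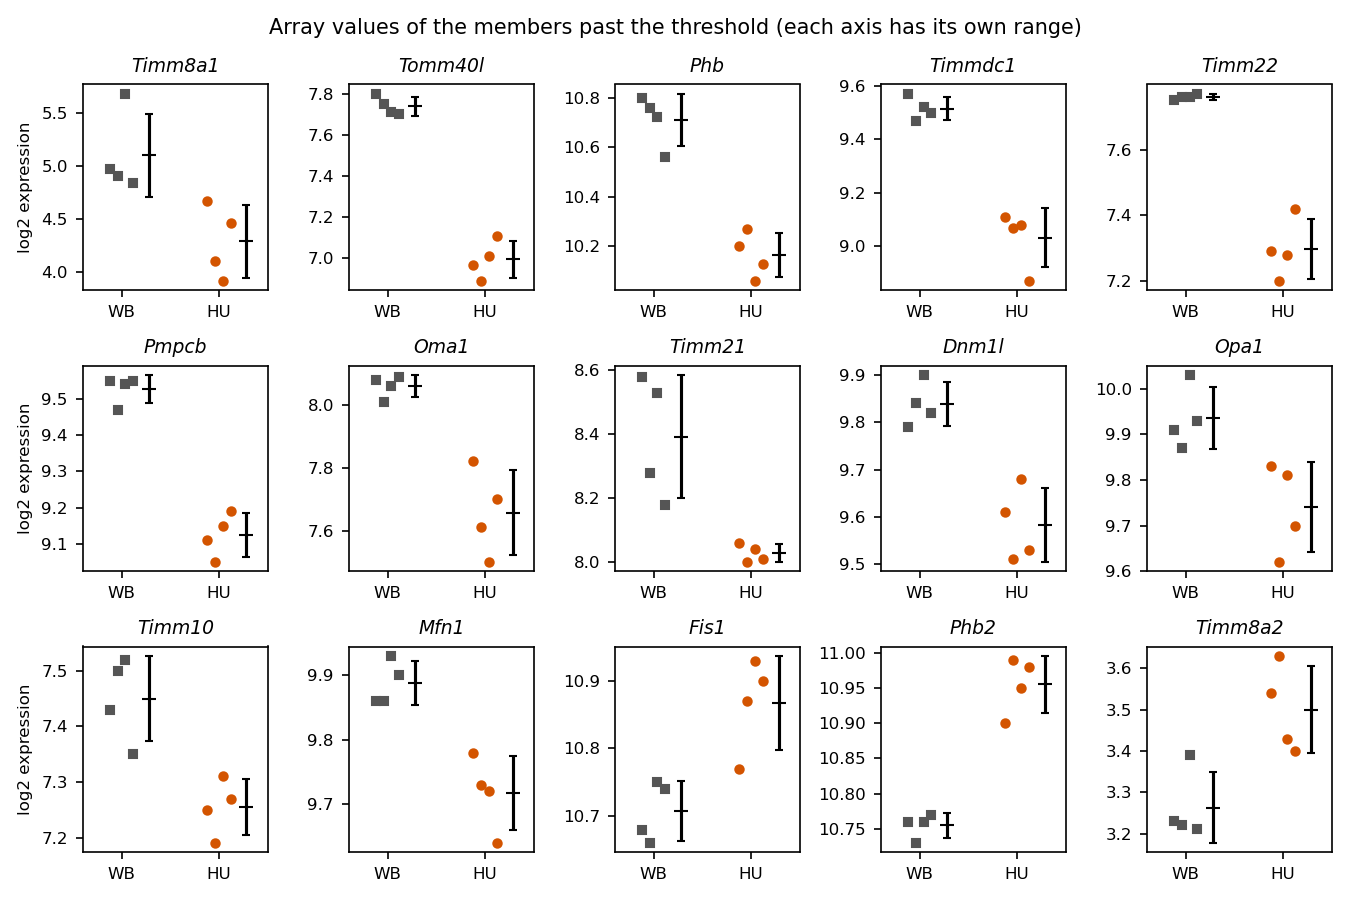
Log2 expression of the 15 genes past the threshold on each array, with weight bearing arrays (WB) as squares and unloaded arrays (HU) as circles, and the mean ± SD (n = 4) beside them. Each panel has its own range. In every panel the groups do not overlap, with 12 genes lower and 3 (Fis1, Phb2, Timm8a2) higher in unloaded muscle.

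Of the 6 measured genes of the presequence translocase only Timm21 passed the test, and it fell 1.29-fold. Thus 16.7% of these 6 genes were called lower, against 11.0% of all probe sets. Timm21 is an inner membrane subunit that touches the outer membrane translocase and the respiratory chain. It measured 8.06, 8.00, 8.04 and 8.01 in the unloaded arrays and 8.58, 8.28, 8.53 and 8.18 in the weight bearing arrays. The weight bearing arrays were spread more widely (SD 0.19) than the unloaded ones (SD 0.03), and all lay above them. The log2 change was -0.37 ± 0.09 (SE, adjusted p = 0.0123), though the methods' t-test, which does not pool the spread over genes, gave an adjusted p of 0.119. Timm50, the receptor that meets arriving presequences, had a change of -0.13 (adjusted p = 0.0841) with no overlap between groups. Timm44, which anchors the motor chaperone to the channel, had a change of -0.16 (adjusted p = 0.0937). It passed in 1 of 17 alternatives (limma adjusted p = 0.0414 without unloaded replicate 3, but 0.197 without unloaded replicate 2). The channel proteins Timm17a and Timm17b and the nucleotide exchange factor Grpel1 had changes of 0.03 to 0.07, with adjusted p of 0.3 to 0.631. The median over the 6 genes was -0.05.

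The carrier translocase and its chaperones held 3 genes that fell and 1 that rose among 9. These are 33.3% and 11.1%, against 11.0% and 12.8% of all probe sets. Timm22, the pore of the carrier translocase, was 1.38-fold lower. It measured 7.29, 7.20, 7.28 and 7.42 in the unloaded arrays. In the weight bearing arrays it measured 7.75, 7.76, 7.76 and 7.77, the tightest group of any called gene (SD 0.01). That is a log2 change of -0.46 ± 0.05 (SE, adjusted p = 2.8e-04). Timm29, another subunit of this translocase, had a change of -0.09 (adjusted p = 0.197).

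The small TIM proteins form ring-shaped chaperones that carry hydrophobic precursors between the membranes, Timm9 with Timm10 and Timm8 proteins with Timm13. Timm10 measured 7.25, 7.19, 7.31 and 7.27 in the unloaded arrays and 7.43, 7.50, 7.52 and 7.35 in the weight bearing arrays, only 0.04 apart at the closest. On the log2 scale it changed by -0.19 ± 0.05 (SE, adjusted p = 0.0247). Leaving out unloaded replicate 2 or 4, or weight bearing replicate 2 or 3, moved its adjusted p to between 0.0505 and 0.0678. Its partner Timm9 had a change of 0.13 (adjusted p = 0.282), and the groups overlapped. Timm8a1, whose human counterpart is the gene mutated in a deafness and dystonia syndrome, measured 4.67, 4.10, 3.91 and 4.46 in the unloaded arrays and 4.97, 4.90, 5.68 and 4.84 in the weight bearing arrays. Weight bearing replicate 3 stood above its group, and without it the change of -0.81 ± 0.20 (SE, adjusted p = 0.0168) became -0.62 (adjusted p = 0.0243). Across the settings in which it was tested its adjusted p ran up to 0.0942. Timm8a2, a close relative of Timm8a1, was the one gene of the group that rose. It measured 3.54, 3.63, 3.43 and 3.40 in the unloaded arrays and 3.23, 3.22, 3.39 and 3.21 in the weight bearing arrays, a log2 change of 0.24 ± 0.07 (SE, adjusted p = 0.0253). Both were dim, at the 23.9th and the 8.07th percentile of mean level, and whether their probes tell these related transcripts apart was not tested. For Timm8a2 the groups were 0.02 apart, its adjusted p by the methods' t-test was 0.0738, and its limma adjusted p lay between 0.0521 and 0.0661 when unloaded replicate 1 or 2 or weight bearing replicate 1, 2 or 4 was left out. Timm8b, by contrast at the 98.6th percentile, had a change of 0.08 (adjusted p = 0.181). Timm13 and Timm10b had changes of -0.06 and -0.04, with adjusted p of 0.416 and 0.703. The median over the 9 genes was -0.06.

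Timmdc1 carries a Timm name for its sequence but acts in the assembly of complex I of the respiratory chain. It fell 1.40-fold in unloaded muscle. The unloaded arrays gave 9.11, 9.07, 9.08 and 8.87 and the weight bearing arrays 9.57, 9.47, 9.52 and 9.50. Unloaded replicate 4 was the lowest, yet the nearest arrays of the groups were still 0.36 apart. The log2 change was -0.48 ± 0.06 (SE, adjusted p = 4.4e-04). Symbols starting with Nduf name subunits and assembly factors of complex I. Of 45 such genes limma called 31 lower (68.9%) and 0 higher, against 11.0% and 12.8% of all probe sets. Their median change was -0.22. At an unadjusted p under 0.05, 37 Nduf genes were lower and 1 higher, against 3262 and 4669 of the 21212 probe sets. The methods' t-test called 18 lower and 0 higher, against 6.48% and 6.57% of all probe sets. Mitochondrial ribosomal proteins, with symbols starting Mrpl or Mrps, were lower in 24 of 77 genes (31.2%) and higher in 1, with a median of -0.10. The share of import and dynamics genes that were lower, 31.6%, lay near that of the ribosomal proteins and below that of complex I, and no test of these shares was made.

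**Figure D3:**
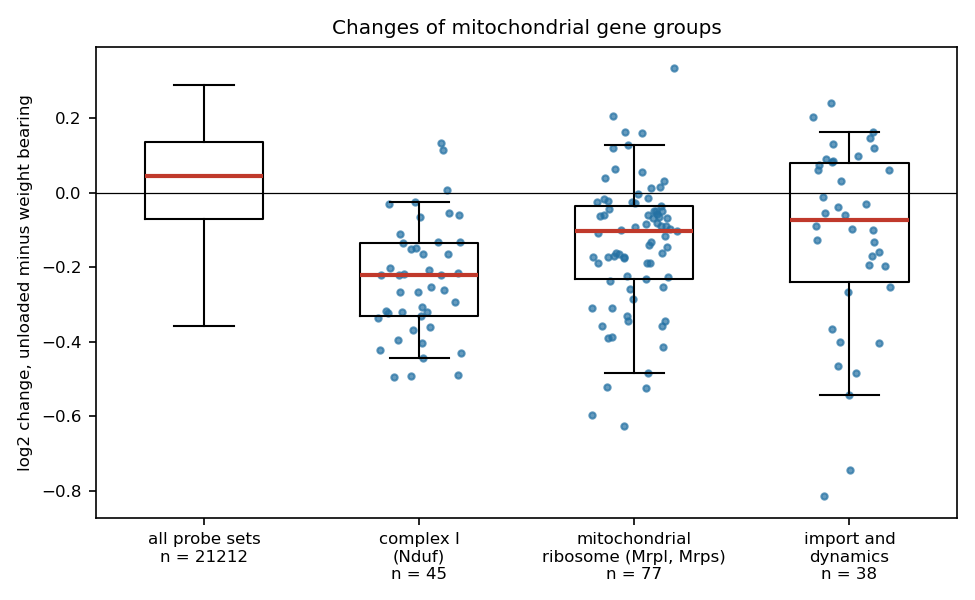
Log2 change (unloaded minus weight bearing) over all 21212 probe sets, 45 Nduf genes, 77 Mrpl and Mrps genes and the 38 import and dynamics genes. Boxes span the quartiles with the median in red (0.04, -0.22, -0.10 and -0.07 from left to right), whiskers reach from the 5th to the 95th percentile, and points are single genes.

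Of the 5 proteases 2 fell (40%, against 11.0% of all probe sets) and 0 rose by limma. Pmpcb is the catalytic subunit of the matrix processing peptidase that cuts off presequences, and it was 1.32-fold lower. It measured 9.11, 9.05, 9.15 and 9.19 in the unloaded arrays and 9.55, 9.47, 9.54 and 9.55 in the weight bearing arrays, with 0.28 between the nearest arrays. The log2 change was -0.40 ± 0.05 (SE, adjusted p = 3.7e-04). Its partner Pmpca, which holds the substrate, measured 9.98, 10.02, 10.05 and 10.03 in the unloaded arrays and 9.96, 9.87, 9.98 and 9.93 in the weight bearing arrays. These groups were 0.01 apart in the opposite direction, and the change of 0.09 did not pass (adjusted p = 0.18). Oma1, a stress-responsive inner membrane protease that cleaves Opa1, was also 1.32-fold lower. Unloaded arrays measured 7.82, 7.61, 7.50 and 7.70 and weight bearing arrays 8.08, 8.01, 8.06 and 8.09 for Oma1, with a log2 change of -0.40 ± 0.07 (SE, adjusted p = 0.00231). By the methods' t-test its adjusted p was 0.0547, and the unloaded arrays had the larger spread (SD 0.14 against 0.03). The matrix proteases Clpp and Lonp1, which degrade damaged proteins, had changes of 0.15 (adjusted p = 0.0718) and -0.01 (adjusted p = 0.874). Clpp was the 1 protease higher at an unadjusted p under 0.05 by limma, and the methods' t-test called 0 higher and 1 lower.

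The prohibitins Phb and Phb2 alternate in a ring in the inner membrane that organises proteins and lipids around it, and they moved in opposite directions. Phb fell 1.46-fold and Phb2 rose 1.15-fold in unloaded muscle. Phb measured 10.20, 10.27, 10.06 and 10.13 in the unloaded arrays and 10.80, 10.76, 10.72 and 10.56 in the weight bearing arrays, 0.29 apart at the closest. Its log2 change was -0.54 ± 0.07 (SE, adjusted p = 3.7e-04). Phb2 measured 10.90, 10.99, 10.95 and 10.98 in the unloaded arrays and 10.76, 10.73, 10.76 and 10.77 in the weight bearing arrays, 0.14 apart with the unloaded arrays on top. The limma log2 change was 0.20 ± 0.04 (SE, adjusted p = 0.00796). Immt, the core of the MICOS complex that holds cristae junctions together, had a change of -0.03 (adjusted p = 0.694) and overlapping groups.

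Because the partners moved apart, the 250 bases before their transcription starts are shown, from RefSeq on the mouse build GRCm38.p6. Both lie on the plus strand, at chr11:95666707-95666956 for Phb and chr6:124712039-124712288 for Phb2. Capitals mark the E box CACGTG, the only searched motif found in either window.
Phb: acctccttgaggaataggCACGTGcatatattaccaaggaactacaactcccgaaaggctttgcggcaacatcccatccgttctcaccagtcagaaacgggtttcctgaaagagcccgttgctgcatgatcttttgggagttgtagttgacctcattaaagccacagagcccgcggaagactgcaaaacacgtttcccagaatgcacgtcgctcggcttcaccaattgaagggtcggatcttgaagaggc
Phb2: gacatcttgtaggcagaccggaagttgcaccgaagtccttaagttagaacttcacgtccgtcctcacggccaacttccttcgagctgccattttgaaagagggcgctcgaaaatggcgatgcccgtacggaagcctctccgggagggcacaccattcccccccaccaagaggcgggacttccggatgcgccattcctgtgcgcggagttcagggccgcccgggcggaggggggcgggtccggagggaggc
The E box of Phb starts 232 bases before the transcription start, and the windows hold 50.8% G and C for Phb and 63.2% for Phb2. None of the searched motifs (TGCGCA, the core of the NRF1 element, TCAAGGTCA, the element of the ERR receptors, and CACGTG, each on both strands) was in the Phb2 window.

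The fusion genes also divided. Mfn1 and Mfn2 are outer membrane GTPases that join the membranes of neighbouring mitochondria, and Opa1 fuses the inner membrane and keeps cristae in shape. Mfn1 and Opa1 fell by small amounts, 1.13-fold and 1.15-fold, and Mfn2 did not pass. Mfn1 measured 9.78, 9.73, 9.72 and 9.64 in the unloaded arrays and 9.86, 9.86, 9.93 and 9.90 in the weight bearing arrays. That is a log2 change of -0.17 ± 0.05 (SE, adjusted p = 0.0267), and its adjusted p was between 0.0505 and 0.074 without any 1 array other than unloaded replicate 1 or weight bearing replicate 2. Opa1 measured 9.83, 9.62, 9.81 and 9.70 in the unloaded arrays and 9.91, 9.87, 10.03 and 9.93 in the weight bearing arrays, 0.04 apart. On the log2 scale it changed by -0.20 ± 0.06 (SE, adjusted p = 0.0399), and its adjusted p was between 0.0501 and 0.103 without any 1 array other than unloaded replicate 1 or 3. Mfn2 measured 11.34, 11.38, 11.40 and 11.34 in the unloaded arrays and 11.24, 11.24, 11.28 and 11.30 in the weight bearing arrays. Every unloaded array was higher by at least 0.03, with a log2 change of 0.10 ± 0.04 (SE, adjusted p = 0.128). Its call depended on the model of the spread and on the scaling. The methods' t-test gave an adjusted p of 0.0427, and limma after quantile normalization gave 0.0461. The range over all settings was 0.0337 to 0.251.

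Fission is carried out by Dnm1l (Drp1), a cytosolic dynamin that is recruited to the outer membrane by adaptors such as Fis1 and Mff and squeezes the organelle until it divides. The GTPase fell 1.19-fold and the adaptor Fis1 rose 1.12-fold. Dnm1l measured 9.61, 9.51, 9.68 and 9.53 in the unloaded arrays and 9.79, 9.84, 9.90 and 9.82 in the weight bearing arrays, 0.11 apart. Its log2 change was -0.25 ± 0.05 (SE, adjusted p = 0.00724). Fis1 measured 10.77, 10.87, 10.93 and 10.90 in the unloaded arrays and 10.68, 10.66, 10.75 and 10.74 in the weight bearing arrays, so that unloaded replicate 1 was within 0.02 of the weight bearing arrays. The limma log2 change was 0.16 ± 0.05 (SE, adjusted p = 0.0429), the weakest of the 15 calls. Leaving out any 1 array other than unloaded replicate 1 moved its adjusted p to between 0.0535 and 0.108, and the methods' t-test gave 0.0646. Mff had a change of 0.12 (adjusted p = 0.105), with overlapping groups.

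Opa1 and Fis1, an inner membrane fusion gene that fell and a fission adaptor that rose, both hold TGCGCA, the core of the NRF1 element, in the 250 bases before the start that the promoter table lists. The windows are chr16:29579084-29579333 for Opa1 and chr5:136953025-136953274 for Fis1, both on the plus strand of GRCm38.p6 from RefSeq, and capitals mark the motif.
Opa1: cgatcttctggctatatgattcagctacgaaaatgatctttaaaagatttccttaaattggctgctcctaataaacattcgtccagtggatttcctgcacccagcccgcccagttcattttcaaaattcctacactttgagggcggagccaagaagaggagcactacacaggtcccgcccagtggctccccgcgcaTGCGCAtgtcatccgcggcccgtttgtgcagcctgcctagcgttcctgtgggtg
Fis1: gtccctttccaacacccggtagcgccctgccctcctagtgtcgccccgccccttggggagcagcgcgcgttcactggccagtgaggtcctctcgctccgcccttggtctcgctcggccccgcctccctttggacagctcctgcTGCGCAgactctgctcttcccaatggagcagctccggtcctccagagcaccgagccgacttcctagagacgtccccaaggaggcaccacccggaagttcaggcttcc
The motif starts 54 bases before the listed start in Opa1 and 107 in Fis1, and the windows hold 52% and 66.8% G and C. For Opa1 the gene itself begins earlier in RefSeq, at base 29579281, so the last 53 bases of its window lie within the gene and the motif spans that earlier start. Fis1 has 2 windows in the table, of which the one at the start of the gene is shown. Over the 35 genes matched to the promoter table, and in windows from 250 bases before to 50 after each listed start, TGCGCA was found in 7 (20%), which were Fis1 among the genes that rose, Opa1 among those that fell, and 5 that did not pass (Immt, Lonp1, Timm13, Timm8b and Tomm34). It was present in 8.79% of all 27025 genes of the table. CACGTG was found in 5 genes (14.3%, against 8.09% of all genes), and of these Phb, Timm10 and Timm8a1 fell and Lonp1 and Timm9 did not pass. TCAAGGTCA was found only in Timm8b, with 0.466% of all genes holding it. These are letter matches, which show neither binding nor use of a site.

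Partners and paralogs were then set against each other within each array. For each of 10 pairs the difference of the log2 values was taken on every array and compared between groups by an exact two-sided permutation test over all 70 groupings, whose smallest possible p is 0.0286. In 8 of the 10 pairs the groups did not overlap in this difference, and each of these had that smallest p (adjusted p = 0.0357 over the 10 pairs). This adjusted p depends on how many of the chosen pairs reach the smallest p. A pair that reached it alone would not have passed, so the adjusted p is no measure of any single pair. The pairs were chosen with earlier results known, single probe sets already separated the groups at 15.5% upwards and 12.0% downwards, and the share over other pairs of genes was not computed, so the count itself is only a description. The widest divergence was between Tomm40 and Tomm40l, with Tomm40l moving by -0.80 ± 0.07 (SE) relative to Tomm40. Phb2 moved by 0.75 ± 0.07 (SE) relative to Phb, and Pmpcb by -0.49 ± 0.03 (SE) relative to Pmpca. Among the small TIM chaperones, Timm10 moved by -0.32 ± 0.07 (SE) relative to Timm9, and Timm13 by -0.14 ± 0.04 (SE) relative to Timm8b. In this last pair neither gene passed the test on its own.

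Mfn2 moved by 0.27 ± 0.03 (SE) relative to Mfn1, although Mfn2 alone did not pass by limma. Each mitofusin alone already separated the groups, Mfn1 downwards and Mfn2 upwards, so their difference could not overlap and its p was fixed beforehand. The same holds for Phb with Phb2 and for Pmpcb with Pmpca. It holds for Tomm40l with Tomm40 too. Tomm40l alone left a gap of 0.59 between groups, and Tomm40 ranged only from 7.63 to 7.77 over all arrays. Opa1 moved by 0.20 ± 0.08 (SE) relative to its protease Oma1 (0.13 without unloaded replicate 3), both having fallen, and by -0.17 ± 0.04 (SE) relative to the cristae protein Immt. The other two pairs did not pass. Dnm1l and Opa1, dynamins of fission and fusion, differed in their change by -0.06 ± 0.03 (SE, exact permutation p = 0.171, adjusted p = 0.19), both being lower in unloaded muscle. The channel proteins Timm17a and Timm17b differed by -0.03 ± 0.07 (SE, exact permutation p = 0.657, adjusted p = 0.657).

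**Figure D4:**
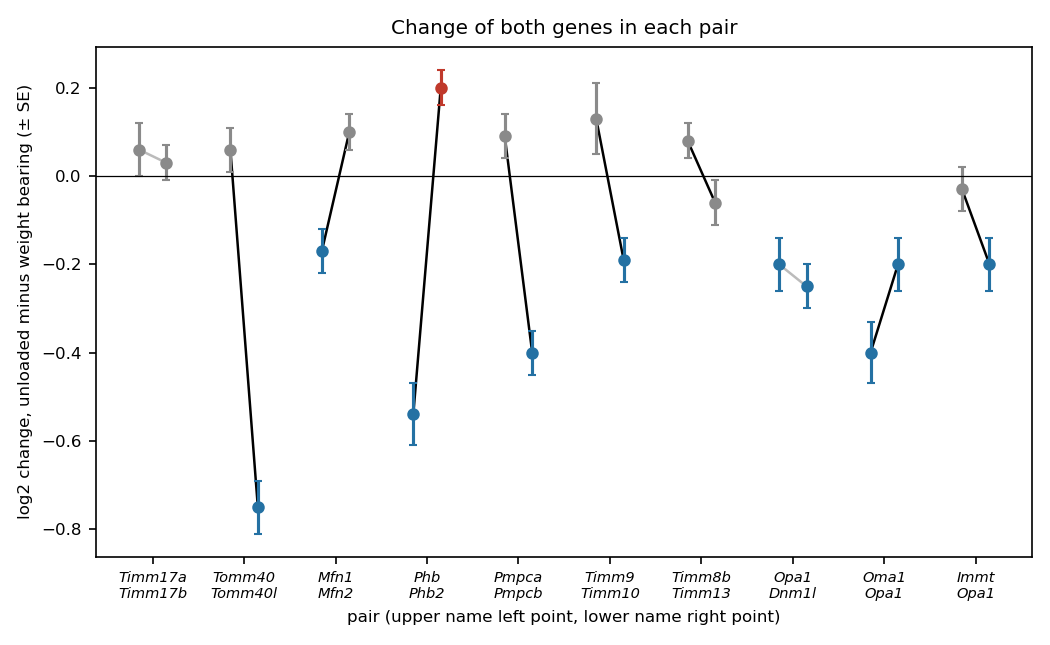
Log2 change (unloaded minus weight bearing, ± SE, 4 arrays per group) of both genes of 10 pairs, the upper name at the left point. Red, blue and grey points are higher, lower and not past the threshold. Black lines join the 8 pairs at the smallest p that the exact permutation test can give (0.0286). The steepest lines are those of Tomm40 and Tomm40l and of Phb and Phb2.

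Other genes of the same machinery, taken from lists that do not overlap the 38, were also more often lower than higher. Of 55 measured genes limma called 18 lower (32.7%) and 4 higher (7.27%), against 11.0% and 12.8% of all probe sets. The median change was -0.10. Among 20 further import and folding genes 8 were lower (40%) and 1 higher (5%). The folding chaperone Hspd1 (Hsp60) fell 1.54-fold (log2 change -0.62, adjusted p = 7.6e-04). Dnajc15, a J protein of the import motor, fell 1.33-fold (adjusted p = 0.00198), and the intermediate peptidase Mipep fell 1.24-fold (adjusted p = 0.00251). Immp1l, a subunit of the inner membrane peptidase, was called lower at a level in the 10.4th percentile (adjusted p = 0.0292). The gene that rose was Gfer, the oxidase of the disulphide relay in the intermembrane space, with a 1.33-fold increase (log2 change 0.42, adjusted p = 6.4e-04).

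Cristae genes of the MICOS complex other than Immt were lower in 3 of 6 and higher in 0, namely Micos10 (1.41-fold, adjusted p = 2.4e-04), Apool (1.29-fold, adjusted p = 0.00445) and Chchd3 (1.11-fold, adjusted p = 0.0348). At an unadjusted p under 0.05, 0 of these MICOS genes were higher. The methods' t-test called the same 3 lower and 0 higher, against 6.48% and 6.57% of all probe sets. Of 19 further genes of fusion, fission and transport 6 were lower (31.6%) and 1 higher (5.26%), against 11.0% and 12.8% of all probe sets. The fission genes Mtfp1 and Mtfr1 fell 1.59-fold (adjusted p = 7.9e-05) and 1.46-fold (adjusted p = 7.5e-05). Trak2 and Trak1, adaptors that link mitochondria to motor proteins, fell 1.23-fold (adjusted p = 9.0e-04) and 1.18-fold (adjusted p = 0.0144). Stoml2, an inner membrane scaffold protein that binds prohibitins, rose 1.13-fold (adjusted p = 0.014). Of 10 further proteases and chaperones 2 were higher (20%) and 1 lower (10%), which is near the shares over all probe sets. Both genes that rose encode proteases, the rhomboid protease Parl (1.18-fold, adjusted p = 0.0092) and Pitrm1 (1.18-fold, adjusted p = 0.00347), which degrades cut presequences. Htra2, a protease of the intermembrane space, fell 1.19-fold (adjusted p = 0.0132).

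Markers of fibre type and of other cells moved in the same arrays, in which limma called 11.0% of all probe sets lower and 12.8% higher. Of 8 markers of slow oxidative fibres, which are rich in mitochondria, 4 were lower and 0 higher, with a median change of -0.34. Myl2 fell 2.02-fold (adjusted p = 0.00544) and Myl3 1.92-fold (adjusted p = 0.00277). Tnni1 and Tnnt1 were lower as well, while Myh7 (log2 change -0.18), Tnnc1 (-0.34), Tpm3 (-0.05) and Atp2a2 (-0.04) did not pass. By the methods' t-test 0 of the 8 passed, with adjusted p of 0.106 for Myl2 and 0.0892 for Myl3. Summed on the linear scale, the 8 markers ranged from 8541 to 11756 in unloaded and from 12211 to 13074 in weight bearing arrays. Of the 10 markers of the muscle fibre 3 were lower and 1 higher, and their sum ranged from 68978 to 70992 and from 71956 to 74597. Fibroblast markers were lower in 5 of 8, with sums of 9377 to 9760 against 13142 to 14890. The 5 were Col1a1, Col1a2, Col3a1, Fbn1 and Lum, while Dcn (log2 change -0.02), Gsn (-0.11) and Pdgfra (-0.11) did not pass. Macrophage markers were lower in 6 of 8, with sums of 1087 to 1335 against 1468 to 1771. Endothelial markers were lower in 2 of 7, with sums of 3151 to 3316 against 3308 to 3777. None of the 5 adipocyte markers passed by limma, by the methods' t-test or at an unadjusted p under 0.05, and their sums overlapped (1414 to 2774 against 1410 to 2514). No fibroblast, macrophage or endothelial marker was higher by limma or the methods' t-test, nor at an unadjusted p under 0.05. The part of fibre type and of other cells in the changes of the import and dynamics genes was not tested.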

How the data were processed

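The authors hybridised each of 8 independent RNA samples (4 unloaded, 4 weight bearing) to an Affymetrix Mouse Gene 1.0 ST array and processed the arrays together by RMA (robust multi-array analysis), using probe sets redefined by a custom file. The deposited values are log2 expression per probe set. RMA evens out the distributions of the arrays. No version of RMA stands in the submitters' processing notes, and for the custom file the release was not given in the sources. Every sample's column entered the fits. Arrays give no read depth, so their number limits the precision. The labels name no batch.

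Values were used as deposited with no filter. Symbols came from a RefSeq table (20656 probe sets) and otherwise from the platform's annotation, and 503 probe sets had none. In R 4.3.3, lmFit and eBayes of limma 3.58.1 gave two-sided p-values, which were adjusted by Benjamini and Hochberg's method across the 21212 probe sets. The code was tested on simulated data. The authors' methods name a parametric t-test with thresholds on p and q, with no word on variances or on how q was made. It was run here with unequal variances and the same adjustment. Pairs were compared by an exact permutation test in Python 3.11.15 with scipy 1.17.1 and numpy 2.4.6. A fold is 2 raised to the log2 change. All 38 genes are described by role, genes past the threshold with every array, up to 4 called genes each way from each other list by size of change, and both genes of a pair. The members, lists and pairs were chosen with earlier results of these data known, so their directions are no independent support. Promoters are RefSeq windows on GRCm38.p6 and were matched for 35 genes. A pair of Tomm20 and Tomm70a and the proteins of the small TIM genes were not analysed here. Alternatives were other tests and variance models, array weights, filters on dim probe sets, other scaling, a replicate block, a minimum fold and leaving out each array.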

Additional observations from a re-analysis of the deposited data

Results flagged for a closer look

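In 4 of 76 groups of 4 arrays, 1 array stood apart from the other 3, measured as its gap to the nearest array over the range of the group and set against Dixon's 95% critical value. Chance alone gives about 1 such group in 20. Weight bearing replicate 3 was the highest of its group for Timm8a1 (ratio 0.839, with 5.68 against 4.84 to 4.97), for Timm8a2 (ratio 0.901, with 3.39 against 3.21 to 3.23) and for Tomm22 (ratio 0.870, with 8.18 against 7.41 to 7.51). Unloaded replicate 4 was the lowest of its group for Timmdc1 (ratio 0.842, with 8.87 against 9.07 to 9.11). Without weight bearing replicate 3 the change of Tomm22 was -0.09 (adjusted p = 0.685, limma) in place of -0.27. Timm8a1 and Timm8a2 kept their calls without that array, at changes of -0.62 (adjusted p = 0.0243) and 0.28 (adjusted p = 0.0158), and Timmdc1 kept its call without each array in turn.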

How the results depend on the processing

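Dnm1l, Phb, Phb2, Pmpcb, Timm22, Timmdc1 and Tomm40l kept their calls under all 17 alternatives that recomputed the test, though Phb2 and Dnm1l changed by less than 1.2-fold. The 12 lower genes became 7 with the methods' t-test, which dropped Oma1, Opa1, Timm10, Timm21 and Timm8a1, and of the higher genes Fis1 and Timm8a2, and added Mfn2. With equal variances 9 were lower, without Opa1, Timm21 and Timm8a1, and 4 higher, without Timm8a2 and with Mfn2 and Timm8b. The 3 higher genes became 6 with an intensity trend and robust variance and 5 with quantile normalization, with Clpp, Mff and Mfn2 added in both and Timm8a2 (adjusted p = 0.0707) lost in the second, and 0 when a change of at least 1.2-fold was also required, which left 8 lower. Array weights, the filters and centring on array medians gave 2 to 3 higher and 11 to 12 lower. Leaving out 1 array at a time gave 1 to 2 higher and 9 to 12 lower genes. In those fits a change crossed 0 for Timm10b (-0.08 to 0.01) and for Lonp1 (-0.03 to 0.01), and that of Lonp1 was also 0.01 with quantile normalization. With the replicate number as a block 2 genes were higher and 12 lower. Fis1 (adjusted p = 0.053) and Mfn1 (0.0572) dropped out and Tomm22 (0.041) came in. Same-numbered arrays deviated together only weakly (r of 0.0242 to 0.12), so the numbers were not taken as pairs. The 8 of 10 pairs held under quantile normalization, while centring on medians cannot alter a difference within an array. With 1 array out their exact test cannot go below 0.0571 and gave values only. Apart from the dim Timm8a1 and Timm8a2, not tested under the filters, signal over background was not available per probe set. The cause of these shifts was not tested.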
